A study of Danio rerio with 2 samples.

Results

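The genes described here encode the proteins of the mitochondrial ribosome, measured in whole gnl2 mutant and wild-type zebrafish embryos. Probes were taken if the gene name or a symbol in parentheses in the array annotation began with mrpl or mrps, or if the annotation contained the phrase mitochondrial ribosomal protein. This found 17 of the 21495 gene probes on the array, annotated to 13 proteins among 17979 distinct gene names, 8 of them called L for the large subunit and 5 called S for the small subunit. Because the annotation is old, many such genes stand on the array under clone names. Current symbols in the RefSeq gene table of assembly GRCz12tu added 41 probes, and descriptions that name a mitochondrial ribosomal protein of another species added 14. In all 72 probes for 47 proteins were found, and the 3 ways of finding them are kept apart where it matters. The same assembly lists 75 genes with a symbol of mrpl or mrps and a digit, so only part of the family is covered.

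The mutant embryos were homozygous for the bw41c allele of gnl2, which encodes a nucleolar GTPase needed for the large cytosolic ribosomal subunit, and came from matings between heterozygous carriers. The wild-type embryos were of the TL strain, and both kinds were collected at 22 hours post-fertilization and extracted as pools of 40. Mutant RNA was labelled with Cy5 and wild-type RNA with Cy3 on array 1, and the dyes were exchanged on array 2. Each value below is a log2 ratio of mutant over wild type, so that a value above 0 is higher in the mutants, and errors are SD over n = 2 arrays. Since the wild types are not stated to be siblings of the mutants, strain background and genotype cannot be told apart, and in RNA from pooled whole embryos fewer cells of a kind and less RNA per cell cannot be told apart. The series text calls the arrays 2 biological replicates, but both titles end in the same number. If they share extracts, the p-values measure technical spread alone.

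Mitochondria keep their own ribosome, which translates the few proteins still encoded by mitochondrial DNA, all of them core parts of the respiratory chain and the ATP synthase. Its RNAs are transcribed inside the organelle, whereas its proteins are encoded in the nucleus, made on cytosolic ribosomes and imported. Some of these proteins descend from bacterial ribosomal proteins, and others joined the particle during the evolution of eukaryotes. Assembly takes place in the mitochondrial matrix with its own GTPases and RNA-modifying enzymes, apart from the nucleolar pathway in which Gnl2 acts.

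On both arrays most gene probes gave signal. Median signals over gene probes were 482 and 204 in the mutant channels of arrays 1 and 2, and 243 and 305 in the wild-type channels, and 92.7% to 96.4% of gene probes were well above background in each channel. No mitochondrial ribosomal protein probe was saturated. The gnl2 probe itself had a log2 ratio of -0.99 on array 1 and -2.27 on array 2, a mean of -1.63 ± 0.91 (adjusted p of 1 in limma), and where the probe lies relative to the lesion is not stated. Of 68 marker genes listed for 12 embryonic tissues, 54 had a probe, and 52 passed the filters, with at least 1 in every tissue list.

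Mitochondrial ribosomal protein transcripts were slightly more abundant in gnl2 mutant embryos than in wild-type embryos on average, but no single one of them passed the test. After filtering, 64 of the 72 probes for 43 proteins could be tested, with the brightest probe standing for a gene. The median log2 ratio over the 43 genes was 0.11, against 0.0015 over the 16247 other genes. It was 0.14 on array 1 and 0.053 on array 2, against 0.012 and -0.007 for the other genes. The mean ratio was above 0 for 38 of the 43 genes, compared with 51% of all genes tested. On both arrays 20 genes were higher in the mutants, 46.5% of the list, against 21.2% of all genes tested. On both arrays 3 were lower, 6.98% of the list, against 20.3% of all genes, and the remaining 20 had opposite directions on the arrays. Counted over all 64 tested probes, the median was smaller at 0.085, with 0.12 on array 1 and 0.039 on array 2. Of these probes 39.1% were higher on both arrays and 7.81% lower, against 21.4% and 20% of all probes. With each array centred on its median in place of loess, the list median was 0.40 on array 1 and -0.10 on array 2, with 10 genes higher on both arrays.

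**Figure D1:**
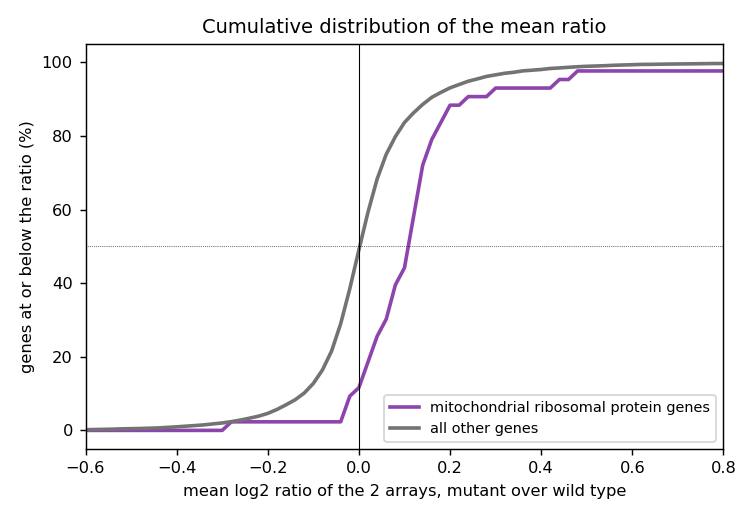
Share of genes (vertical axis, %) whose mean log2 ratio of mutant over wild type lies at or below the value on the horizontal axis, for 43 mitochondrial ribosomal protein genes and 16247 other genes. The curve of the mitochondrial ribosomal protein genes lies to the right over most of the range, with medians of 0.11 and 0.0015.

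In limma's test over all 19284 probes, 0 of the 64 mitochondrial ribosomal protein probes had an adjusted p under 0.05, as for the array as a whole (0 probes, 0%). At an unadjusted limma p under 0.05 there was 1 of 64, which was higher in the mutants, whereas 3.28% of all probes passed in either direction and 2.03% passed and were higher in the mutants. The shift of the list as a whole was not tested and is given as a description of these arrays. Genes near the median, such as mrpl11 and mrpl17, were 1.08-fold and 1.09-fold of wild type in the mean.

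The 17 probes found by name or description alone show the same picture in detail. Of these, 13 were tested, for 10 genes. Their median was 0.14 on array 1, 0.065 on array 2 and 0.12 in the mean. On both arrays 6 genes were higher (60%) and 0 lower, against 21.2% and 20.3% of all genes tested, and 4 were split. The 33 genes added through current symbols and descriptions had medians of 0.13 on array 1 and 0.053 on array 2, and 0.11 in the mean. Over all 51 probes tested for this added part the median of the mean was 0.064. Over the 13 tested probes found by name or description it was 0.12. The parts were not tested against each other.

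**Figure D2:**
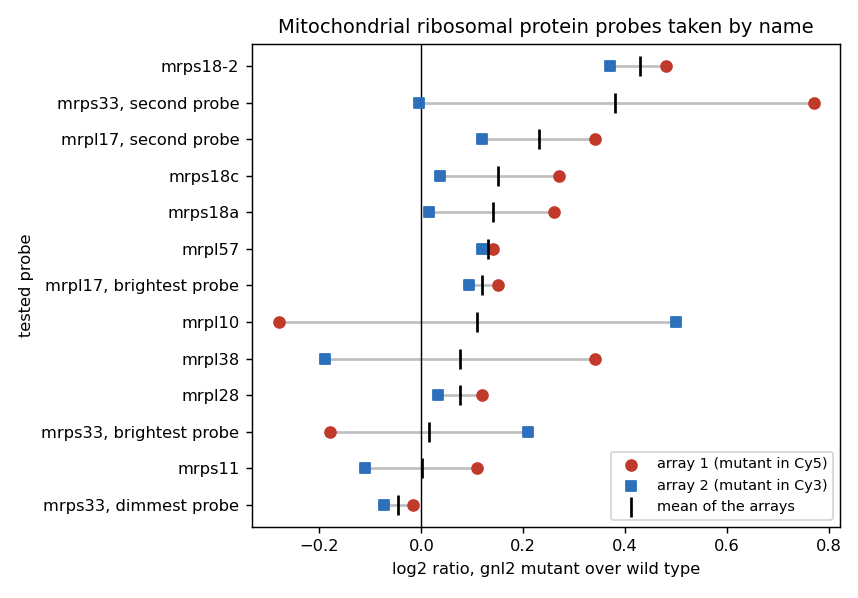
Log2 ratio of mutant over wild type (horizontal axis) of the 13 tested probes found by name or description (vertical axis), on array 1 (circles) and array 2 (squares) with their mean (bars). The mrps18-2 probe lies at 0.48 and 0.37, and the 3 probes of mrps33 lie far apart.

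Among the small-subunit proteins, the family of S18 proteins had positive ratios on both arrays after loess. Bacteria have a single S18 protein, and animal mitochondria have 3 relatives of it that occupy different places in the particle. The probe annotated to S18-2 had normalized log2 intensities of 10.58 and 10.02 in the mutant channels of arrays 1 and 2, against 10.10 and 9.65 in the wild-type channels. The mutant level was the higher on each array, although the ranges of the genotypes across arrays overlap. Its log2 ratios were 0.48 and 0.37, a mean of 0.43 ± 0.076 or 1.34-fold, with an unadjusted limma p of 0.0115 and an adjusted p of 1. It was the 1 member past the unadjusted threshold, and 98.3% of all tested probes had a lower mean.

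A further probe carries the same S18-2 annotation but was flagged as an outlier on array 1. When flagged probes were kept, it gave 0.094 and 0.045, a mean of 0.069 ± 0.034, so the larger ratio of S18-2 rests on 1 of 2 probes. The probe for mrps18a, which by later structures sits in the large subunit in spite of its name, had 0.26 on array 1 and 0.015 on array 2, a mean of 0.14 ± 0.17. The probe for mrps18c, the member that takes the place of bacterial S18, had 0.27 and 0.036, a mean of 0.15 ± 0.16. For both genes the spread between arrays was larger than the mean. The dim mrps18c probe depended on the background correction, with 0.83 and 0.21 and a mean of 0.52 from the Agilent processed signals, and a mean of 0.31 without the normexp offset. With median centring the mrps18c probe had -0.15 and 0.26, a mean of 0.055, and the mrps18a probe was split at 0.53 and -0.18.

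The small-subunit gene mrps33, which encodes a protein with no bacterial counterpart, was measured by 3 probes that did not share a direction. The brightest had -0.18 on array 1 and 0.21 on array 2, a mean of 0.015 ± 0.28. The second had 0.77 and -0.0038, a mean of 0.38 ± 0.55, and the dimmest -0.016 and -0.074, a mean of -0.045 ± 0.041. No level of mrps33 relative to wild type can be fixed from these probes. The probe for S11, a protein of the platform of the small subunit, was dim and had 0.11 and -0.11, a mean of 0.0013 ± 0.16.

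Among the 5 large-subunit genes found by name, mean ratios lay between 0.076 and 0.13. The brightest mrpl17 probe had 0.15 on array 1 and 0.094 on array 2, a mean of 0.12 ± 0.039, and a dimmer probe annotated to L17 had 0.34 and 0.12. The gene mrpl57, named mrp63 in the array annotation, encodes a small protein particular to mitochondria and had 0.14 and 0.12, a mean of 0.13 ± 0.017. The brighter probe for L28 had 0.12 and 0.033, a mean of 0.076 ± 0.061. For these 3 genes both arrays were above 0 after loess, by 1.05-fold to 1.09-fold in the mean. With median centring in place of loess all 3 were split between arrays. Then mrpl17 had 0.43 and -0.10, mrpl57 0.42 and -0.088, and mrpl28 0.40 and -0.18. Dimmer probes that match mrpl57 and mrpl28 by current symbol were split between arrays, with means of 0.043 and 0.00092.

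The other large-subunit probes found by name were split or not measured. The probe for L10, the protein at the base of the stalk that recruits translation factors, had -0.28 on array 1 and 0.50 on array 2, a mean of 0.11 ± 0.55. The gene mrpl38 had 0.34 and -0.19, a mean of 0.076 ± 0.37. Their means above 0 therefore carry no common direction. The probes for L41 and mrpl48 were well above background on array 1 but in neither channel of array 2, and no fold is given for them. The probe for L22, a protein of the exit tunnel, was flagged as an outlier on array 1, and with flagged probes kept it had 0.27 and 0.30, a mean of 0.28 ± 0.025 (unadjusted limma p of 0.0346, adjusted p of 1).

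**Figure D3:**
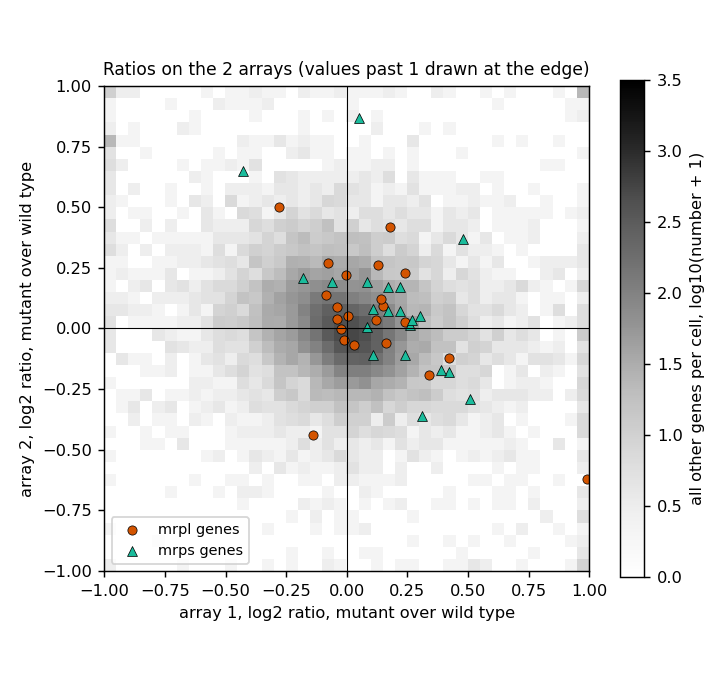
Log2 ratio of mutant over wild type on array 1 (horizontal axis) and array 2 (vertical axis) for mitochondrial ribosomal protein genes, mrpl genes as circles and mrps genes as triangles, over the density of all other genes in grey. Both values are above 0 for 20 of the 43 genes and below 0 for 3.

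The wider set brought in further large-subunit genes with matching ratios on both arrays. The gene mrpl15, whose product has a bacterial counterpart inside the large subunit, had normalized log2 intensities of 10.68 and 10.07 in the mutant channels, against 10.50 and 9.65 in the wild-type channels. Its log2 ratios were 0.18 and 0.42, a mean of 0.30 ± 0.17 or 1.23-fold, and its other probe had 0.046 and 0.42. The limma p was 0.0525 before and 1 after adjustment. After loess both mrpl15 probes were thus higher in the mutants on both arrays, more so on array 2. Median centring gave 0.46 on array 1 and 0.23 on array 2 for the brighter mrpl15 probe. Its direction therefore held, but which array had the larger ratio depended on the normalization.

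The gene mrpl45 encodes a protein that in mammals holds the ribosome to the inner membrane near the tunnel exit. Its brightest probe had normalized log2 intensities of 10.87 and 10.30 in the mutant channels, against 10.63 and 10.07 in the wild-type channels. This gave ratios of 0.24 and 0.23, a mean of 0.24 ± 0.013 or 1.18-fold (limma p of 0.0544, adjusted p of 1), and 0.028 and 0.31 at the other probe. After loess the arrays agree within 0.018 at the brightest probe, and both probes were higher in the mutants on both arrays. With median centring the brightest probe had 0.52 and 0.032. The gene mrpl3, which encodes a protein near the peptidyl transferase centre, had 0.13 and 0.26, a mean of 0.19 ± 0.092, while its dimmer probe was split at -0.17 and 0.37.

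Only 3 genes were lower in the mutants on both arrays, and all are of the large subunit. The brightest probe of mrpl40 had normalized log2 intensities of 10.14 and 9.70 in the mutant channels, against 10.29 and 10.14 in the wild-type channels. Its ratios were -0.14 and -0.44, a mean of -0.29 ± 0.21 or 0.819 of wild type (limma p of 0.0738, adjusted p of 1). The 2 dimmer mrpl40 probes had means of 0.034 and 0.04, with opposite directions on the arrays. The remaining 2 genes lay close to 0, mrpl53 at -0.03 ± 0.023 and mrpl23, whose product lines the tunnel exit, at -0.012 ± 0.014. The mrpl23 probe was dim, with a mean log2 intensity of 6.42, and was split at -0.22 and 0.12 from the Agilent processed signals. With median centring 0 genes were lower on both arrays, and mrpl40 had 0.13 and -0.62.

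The mrpl43 probe had the largest disagreement between arrays. Its normalized log2 intensity was 9.38 in the mutant channel of array 1 and 7.53 in that of array 2, against 6.82 and 8.15 in the wild-type channels. The ratios were 2.56 on array 1 and -0.62 on array 2, a mean of 0.97 ± 2.25 (limma p of 0.329, adjusted p of 1). The mean describes neither array, and without mrpl43 the list median stayed at 0.11 over 42 genes. The other large-subunit genes with tested probes, most of them split between arrays, were mrpl4, mrpl11, mrpl13, mrpl14, mrpl16, mrpl19, mrpl24, mrpl39, mrpl46 and mrpl47, with means between -0.021 and 0.15. A second mrpl46 probe was not well above background in 1 channel of each array, and the only mrpl49 probe was flagged as an outlier.

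**Figure D4:**
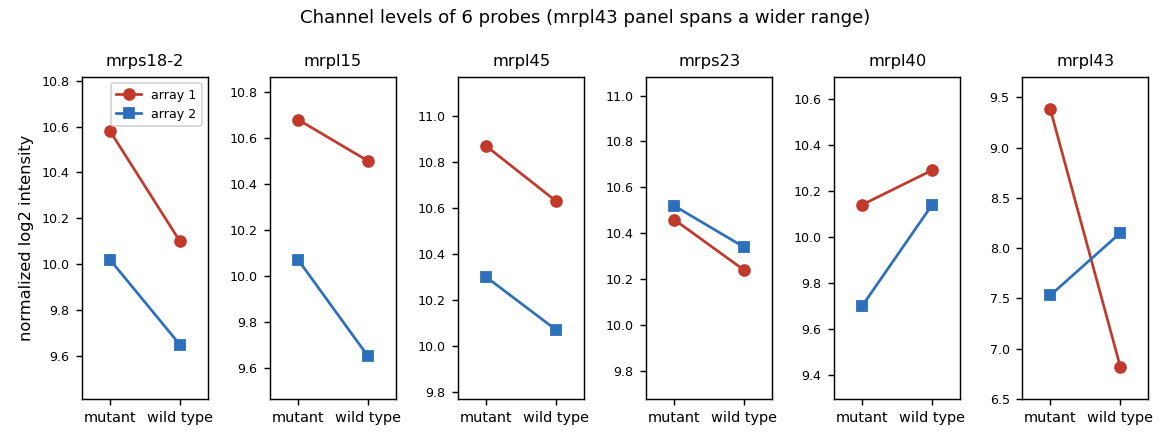
Normalized log2 intensity (vertical axes) in the mutant and the wild-type channel of array 1 (circles) and array 2 (squares) for 6 probes; the mrpl43 panel covers a wider range. After loess, the lines slope down from mutant to wild type on both arrays for mrps18-2, mrpl15, mrpl45 and mrps23, up on both for mrpl40, and cross for mrpl43.

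In the wider set of small-subunit genes, mrps23 had the most even values over probes. Its brightest probe had normalized log2 intensities of 10.46 and 10.52 in the mutant channels, against 10.24 and 10.34 in the wild-type channels. After loess the genotypes did not overlap here across arrays. The ratios were 0.22 and 0.17, a mean of 0.20 ± 0.034 or 1.15-fold (limma p of 0.0879, adjusted p of 1), and the second tested probe had 0.23 and 0.14. Another mrps23 probe carried an outlier flag and gave 0.10 and -0.083 when it was kept. Under median centring the brightest mrps23 probe was split, at 0.49 on array 1 and -0.026 on array 2. Its shared direction on the arrays therefore depended on the normalization.

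The largest mean of the small-subunit genes belonged to a probe for S5, a protein at the entrance of the messenger RNA channel. It had 0.05 on array 1 and 0.87 on array 2, a mean of 0.46 ± 0.58, whereas the other S5 probe had -0.25 and 0.11. The ratio of the brighter probe was near 0 on array 1, and the means of the probes differ by 0.53. The gene mrps15 had 0.30 and 0.053, a mean of 0.18 ± 0.17, and was split at 0.57 and -0.14 with median centring. It lies 34 protein-coding genes from gnl2 in the gene order of GRCz12tu, and mrpl17 lies 187 genes away on the same chromosome; these 2 were the only members with a current symbol, of 29, on the chromosome of gnl2.

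After loess, several small-subunit probes described after mammalian proteins gave close values on both arrays. The probe for S30, a protein that sits in the large subunit in mammalian structures, had 0.17 and 0.17, a mean of 0.17 ± 0.0021. The probe for S29, the GTP-binding protein also known as death-associated protein DAP3, had 0.17 and 0.072, a mean of 0.12 ± 0.07. The probe for S14 had 0.11 and 0.08, and that for S32, now counted with the large subunit, 0.084 and 0.19. All of these were higher in the mutants on both arrays after loess, by 1.07-fold to 1.12-fold in the mean. With median centring in place of loess all were split between arrays. S30 then had 0.45 and -0.031, S29 0.45 and -0.13, S14 0.39 and -0.12, and S32 0.36 and -0.007.

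Other small-subunit genes disagreed between arrays. The probe for S28 had 0.51 on array 1 and -0.29 on array 2, a mean of 0.11 ± 0.57. The gene mrps31, named D60 on the array, had -0.43 and 0.65, a mean of 0.11 ± 0.76, and its second probe was not well above background in any channel. The genes mrps26, mrps27 and mrps10 were positive on array 1 and negative on array 2, as was the brighter mrps34 probe (0.24 and -0.11). The other mrps34 probe had -0.066 and 0.15. The probe for S36, a protein that later work placed in the 2-oxoglutarate dehydrogenase complex and not in the ribosome, had 0.22 and 0.072. Median centring in place of loess split the S36 probe at 0.50 and -0.13. The brightest mrps16 probe had 0.084 and 0.0049, while its dimmer probes had 0.21 and -0.14, and -0.039 and -0.038. The S22 probe was split at -0.061 and 0.19.

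The 21 genes named mrps had a median of 0.12 in the mean, with 0.22 on array 1 and 0.072 on array 2. Of these 12 were higher on both arrays (57.1%) and 0 lower, against 21.2% and 20.3% of all genes tested. The 22 genes named mrpl had a median of 0.086, with 0.074 and 0.047 on the arrays, and 8 were higher on both (36.4%) and 3 lower (13.6%). When mrps18a, S30 and S32 were counted with the large subunit and S36 was left out, the medians were 0.11 over 17 small-subunit genes and 0.11 over 25 large-subunit genes. Genes for proteins with a bacterial counterpart had a median of 0.10 over 24 genes, and those without one 0.11 over 18. Neither the subunits nor the classes by origin were tested against each other.

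Probes of one gene differed by an amount close in size to the list median of 0.11. Over the 17 genes with more than 1 tested probe the range of their means had a median of 0.0831, and for 13 of them all probes had means of the same sign. Since 53 of all 64 tested probes had a mean above 0, a shared sign says little about how well probes agree. The largest ranges were those of S5, mrps33 and mrpl40. Across the 42 genes other than mrpl43, the SD of the mutant-over-wild-type mean was 0.121. The SD of the red-over-green mean of the arrays, in which genotype cancels and the dye effect stays, was 0.189. This red-over-green mean had a median of 0.027 over the 43 genes, against 0.011 over the other genes.

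The mitochondrial ribosomal protein genes were brighter than most, with a median log2 intensity of 10.39 against 8.09 for the other genes. Among other genes whose intensity lay between the quartiles of the list, 9.88 and 11, the median ratio was 0.011 over 1588 genes, against 0.12 for the 21 members in that range. In the authors' deposited p-values, from the scanner software's error model for a single array, 0 of the 64 probes had a p under 0.01 on both arrays in the same direction (0.508% of all probes were higher and 0.181% lower). In the same deposited values 2 probes, those of mrpl43 and mrps31, passed on both arrays in opposite directions, compared with 1.5% of all probes.

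Nuclear genes for other parts of mitochondrial gene expression were thinly covered and had smaller medians. A list of 18 genes for translation factors and other proteins linked to mitochondrial translation had 5 measured, lrpprc, letm1, ptcd3, slirp and mrrf. Their median was -0.029, with 1 higher on both arrays and 1 lower. Only mrrf among these is a translation factor in the strict sense, and ptcd3 (-0.029) is not cleanly apart from the ribosome itself. Over all genes tested 21.2% were higher on both arrays and 20.3% lower. The ribosome recycling factor gene mrrf had 0.41 and 0.40, a mean of 0.40 ± 0.005 (limma p of 0.0116, adjusted p of 1), and letm1, which encodes an inner membrane protein, had -0.039 ± 0.055. A list of 24 symbols for aminoacyl-tRNA synthetases and related enzymes, which holds some alternative names of the same gene, had 7 genes measured. These 7, with qrsl1 and hars among them, had a median of 0.0088, with 1 higher on both arrays and 2 lower. Here sars2, for the mitochondrial seryl-tRNA synthetase, had 0.56 ± 0.43, vars2 -0.17 ± 0.20 and pars2 -0.028 ± 0.0061.

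Of 30 listed mitoribosome assembly factors 8 were measured, with a median of 0.059. On both arrays 3 were higher and 1 lower, against 21.2% and 20.3% of all genes tested. The GTPase gene gtpbp10, whose product acts on the large mitochondrial subunit in human cells, had 0.75 on array 1 and 0.45 on array 2, a mean of 0.60 ± 0.22 (limma p of 0.00966, adjusted p of 1). The gene mpv17l2 had 0.28 ± 0.11, and the RNA-processing gene ybey -0.12 ± 0.00048. Genes for mitochondrial DNA upkeep and transcription had a median of 0.028 over 7 of 20 listed, 2 higher on both arrays and 0 lower, with rnaseh1 at 0.17 ± 0.034 and nrf1 at 0.16 ± 0.22. In these 4 lists 0 genes had an adjusted limma p under 0.05, and 4 in all had an unadjusted one under 0.05, namely mrrf, sars2, gtpbp10 and mpv17l2, of 27 genes measured and against 3.28% of all probes.

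**Figure D5:**
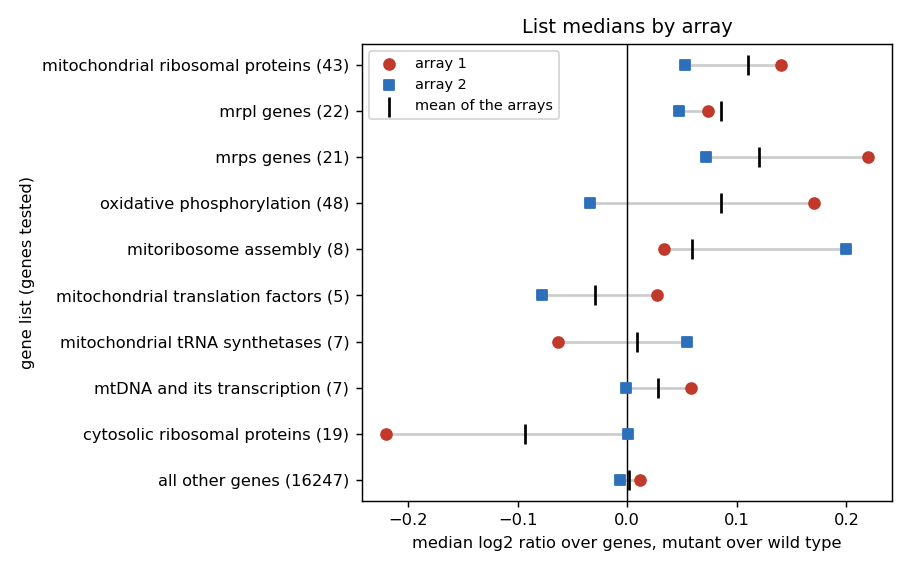
Median log2 ratio of mutant over wild type (horizontal axis) on array 1 (circles), array 2 (squares) and in the mean (bars) for each gene list (vertical axis, genes tested in brackets). The lists labelled translation factors and tRNA synthetases also hold related proteins, some named in the text. After loess, mitochondrial ribosomal proteins lie at 0.14 and 0.053, oxidative phosphorylation subunits at 0.17 and -0.034, and the cytosolic ribosomal proteins without a saturated channel at -0.22 and 0.00062; with median centring the mitochondrial ribosomal proteins lie at 0.40 and -0.10.

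Nuclear genes for oxidative phosphorylation subunits had a median of 0.086 over 48 genes, with 0.17 on array 1 and -0.034 on array 2. On both arrays 15 were higher (31.2%) and 5 lower (10.4%), against 21.2% and 20.3% of all genes tested. Among them cox7a2a had 0.32 ± 0.054, ndufs6 0.29 ± 0.26, cox4i2 -0.16 ± 0.054 and cox6a2 -0.079 ± 0.072. Of 68 cytosolic ribosomal protein genes, 49, rpl12 among them, were saturated in at least 1 channel, and their ratios are not given. The other 19, set apart after the data were seen, had a median of -0.093, with -0.22 on array 1 and 0.00062 on array 2, and 1 was higher on both arrays and 6 lower. Among these rpl35 had 0.12 ± 0.17 and rpl10a -0.59 ± 0.12. Whether the lists differ was not tested.

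Over all tissue marker lists, 21 of the 52 measured genes were higher in the mutants on both arrays and 17 were lower, against 21.2% and 20.3% of all genes tested. Of the markers of neural tissue 5 of 6 were lower in the mutants on both arrays, with a summed normalized intensity of 26340 and 36080 in the mutant channels against 32760 and 43360 in the wild-type channels. Of the eye markers 6 of 6 were lower on both arrays, with sums of 3122 and 3338 in mutants against 4003 and 3624 in wild types. Values close to 0 are counted here, as for the neural marker neurod1 (-0.03 and -0.00061) and the eye marker pax6b (-0.07 and -0.0038). Of the skeletal muscle markers 5 of 8 were higher on both arrays and 1 was lower, with sums of 70880 and 76530 in mutants against 55180 and 72920 in wild types. Among erythroid markers 4 of 5 were higher on both arrays, with sums of 11210 and 14100 in mutants against 12010 and 8890 in wild types, so the sum was lower in mutants on array 1. In the other lists 2 of 3 heart, 1 of 3 notochord, 2 of 2 endothelium and 2 of 3 lens markers were higher on both arrays, and 0 lower. For epidermis 0 of 5 were higher and 2 lower, and for hatching gland 2 of 3 were higher and 1 lower. Neural crest and the list of yolk syncytial layer and liver each had 1 of 4 higher and 1 lower. These counts include markers saturated in at least 1 channel, 3 of epidermis, 1 of hatching gland and 1 of yolk syncytial layer and liver. Without them epidermis had 0 of 2 higher and 1 lower, and hatching gland 2 of 2 higher and 0 lower. The part of these tissue markers in the values of the mitochondrial ribosomal protein genes was not tested.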

How the data were processed

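Each of 2 Agilent zebrafish arrays with 22575 spots held mutant RNA in one dye and wild-type RNA in the other. Mean spot signals and median local backgrounds are deposited as intensity columns, made with Agilent Feature Extraction A.7.5.1 per the file headers. Processed intensity columns were detrended and dye-normalized by LOWESS (smoothing 0.25) per the file headers. Red over green is deposited on the log10 scale, and the value table repeats it without turning the sign for the dye exchange, with medians of 0. The deposited p-value of each spot comes from the software's own error model.

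Signals were corrected by normexp (offset 50) and normalized by loess (span 0.3) with limma 3.58.1 in R 4.3.3. Of the gene probes, 749 were left out for an outlier flag and 1462 because neither genotype was well above background on both arrays. The remaining 19284 were fitted on the log2 ratio with lmFit and eBayes, 2-sided, with Benjamini-Hochberg adjustment, at 3.49 total degrees of freedom. Channel intensities are those after loess and Aquantile scaling and remain open to dye bias. The number of arrays limits the precision.

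Of 21495 gene probes, 7342 took a current name by accession, 593 by symbol and 2341 by synonym. Names such as S5 or L10 are those of the annotated protein. The brightest probe stands for a gene. Members, lists and tests were chosen with earlier results of these data known. The rule for named genes took members at an adjusted or unadjusted p under 0.05, per direction the 8 largest means with 1 sign on both arrays, the 4 largest differences between arrays, genes whose probes differ by over 0.5, and members not above background. From each related list it took the 2 largest means per direction with 1 sign on both arrays. Other members named were chosen after their values were seen. The fit was also run on simulated data, with planted effects far larger than the list medians and the same dye offset for every probe. That run cannot judge shifts of the size described here, nor dye bias that varies with intensity. Alternatives were other background corrections, normalizations, filters, probe and member rules, and the deposited table.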

Additional observations from a re-analysis of the deposited data

How the results depend on the processing

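The 10 genes found by name or description had a median log2 ratio of 0.12, which differed by 0.11 from that of all other genes. In the mean of the arrays both values moved by less than the SD between arrays (0.056 and 0.043) under every alternative tried. After loess each array alone gave a median of 0.065 to 0.14. The SD of 2 arrays exceeds the distance of each from their mean, so it cannot judge single arrays. With median centring the array medians were 0.41 and -0.019. No probe of the list reached an adjusted p under 0.05 under any alternative, although median centring in place of loess gave 38 such probes on the whole array. With median centring, genes higher on both arrays numbered 2 of 10 in place of 6. No probe found by name then had an unadjusted limma p under 0.05. Among these 10 genes the large-subunit median was 0.15 in place of 0.11. The small-subunit median was 0.055 in place of 0.14, which turns their order. Over the 43 genes the order stayed, with 0.12 for mrpl genes and 0.15 for mrps genes. The medians over the 43 genes were 0.40 on array 1 and -0.10 on array 2. Over the 43 genes 10 were then higher on both arrays and 0 lower, in place of 20 and 3. The Agilent processed signals gave 18 higher and 2 lower. Shares of all genes with 1 sign on both arrays were counted in the main setting alone, so counts under the alternatives have no background beside them. In them mrps16 (0.10 and -0.053), mrpl19 (-0.0013 and 0.058) and mrpl23 (-0.22 and 0.12) were split. Without the filter on dim probes 1 of 12 genes was lower on both arrays, and the large-subunit median was 0.076. Members added by current symbol gave 14 genes higher and 3 lower on both arrays of 33, with a large-subunit median of 0.076. Members added also by description, an alternative chosen after the data were seen, gave 20 higher and 3 lower of 43. Each array alone had 8 of the 10 genes above 0 and 2 below. The large-subunit median was then 0.094 to 0.14, the small-subunit median 0.036 to 0.26, and the difference from other genes 0.072 to 0.13. The S11 probe turned to -0.015 without the normexp offset and to -0.065 with median centring. Between the arrays L10 lay at -0.28 and 0.50, mrpl38 at -0.19 and 0.34, S11 at -0.11 and 0.11, and mrps33 at -0.18 and 0.21, and the cause of these turns was not tested. Each ratio already pairs the genotypes within an array. No paired analysis was possible because no further block links the 2 arrays. The mrps18c ratio of 0.15 ranged over other settings from 0.055 with median centring to 0.52 with processed signals. Probes near background bound what can be said of L41, mrpl48 and the dim S11, mrps18c and mrpl23 probes.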
